A study of Mus musculus with 4 samples.

Results

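The genes described here are 35 genes of the interferon response and of antigen presentation by major histocompatibility complex (MHC) class I, measured in mouse embryonic stem cells after knockdown of Brg1. They were taken by gene symbol from the platform annotation of the array. Of the 35, 34 had at least 1 probe set annotated to that gene alone, out of 12393 genes measured in all. These 34 were covered by 62 probe sets. A further 4 probe sets were annotated to a member together with other genes, among them the probe set of Isg15, which is shared with Gm9706, so no value is given for Isg15. Brg1, encoded by Smarca4, is the ATPase motor of SWI/SNF chromatin remodelling complexes.

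The cells were R1 mouse embryonic stem cells, an established line. Of the 4 arrays, 2 came from cells given a lentivirus with a short hairpin RNA (shRNA) against Brg1, and 2 from cells given a lentivirus with an shRNA against GLUT4 (Slc2a4), the glucose transporter used as the control target. Each hairpin was introduced in duplicate and RNA was taken 67 h after infection. Both groups therefore carried a viral hairpin, and uninfected cells were not analysed here. As the groups differ in the hairpin they carried, loss of Brg1, loss of GLUT4 and other effects of either hairpin cannot be told apart. The control target Slc2a4 read 20.9 and 23.9 in the Brg1 knockdown and 11.7 and 19.2 in the control, below the filter, and was not tested. Smarca4 gave 652.1 and 621.5 signal units in the knockdown and 1186.6 and 1213.6 in the control, lower by 0.89 ± 0.08 on the log2 scale (SE, n = 2 each; limma, adjusted p = 0.000232). The knockdown was thus partial at the RNA level. All 10 stem cell markers examined were above the filter, with summed signals between 19135.1 and 20344.2 on the 4 arrays. Of these, 3 rose (30%, against 9.33% of all genes tested), 0 fell (against 5.09%) and 7 did not pass. Nanog, a transcription factor of pluripotency, read 1040.0 and 1003.1 in the knockdown and 564.7 and 533.6 in the control, higher by 0.87 ± 0.08 (limma, adjusted p = 0.000299). Fgf4 and Esrrb were higher by 0.52 and 0.38 (adjusted p = 0.00854 and 0.016). With probe sets averaged per gene these missed the threshold, at 0.31 and 0.17 (limma, adjusted p = 0.0711 and 0.234). Esrrb also missed it with no intensity trend (adjusted p = 0.058), and without knockdown replicate 2 or control replicate 1 (log2 differences 0.37 and 0.35). Of the 10 markers, 6 had a log2 difference above 0 and 4 below. Sox2 was lower on both knockdown arrays but did not pass, at 1515.8 and 1272.4 against 1643.8 and 1608.2 in the control. Its log2 difference was -0.22 (limma, adjusted p = 0.125). The part of these marker changes in the results that follow was not tested.

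Interferons are secreted proteins made when a cell senses viral nucleic acid. They bind receptors that activate the kinases JAK1, TYK2 and JAK2, which phosphorylate STAT proteins. A complex that holds STAT2 and IRF9 binds the interferon-stimulated response element (ISRE) in the promoters of antiviral genes. The gamma-activated site (GAS) is the promoter element of the interferon-gamma response. The same pathways raise MHC class I, a heavy chain paired with beta-2-microglobulin that displays peptides supplied by the proteasome and the TAP transporter. Pluripotent cells are known for a weak interferon response and a low surface level of class I.

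The members did not move as a block in the Brg1 knockdown. Ifitm1 and Tap1 were higher, and Irf1, Bst2 and H2-K1 were lower, with log2 differences between -0.57 and 0.55. Of the 34 measured genes, 18 passed the filter on dim signals (a mean at or above 23.9 signal units on the log scale) and were tested, and 16 were below it. Among the 18 tested, 2 were higher (11.1%, against 9.33% of all 7815 genes tested), 3 were lower (16.7%, against 5.09%) and 13 did not pass limma at an adjusted p under 0.05. In either direction, 5 of 18 (27.8%) passed, against 14.4% of all genes tested. The median log2 difference was -0.06 over the 18 and 0.04 over all genes tested. In 12 of the 18 (66.7%) the knockdown arrays lay both above or both below the control arrays, against 60.2% of all genes tested. Those 12 were 6 in each direction. These counts describe the members that passed the filter, not the whole list.

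Differences are given on the scale log2(signal + 20.0), where 20.0 signal units is the pseudocount, so changes of dim genes are understated. They are also relative to the deposited scale of the arrays. When the arrays were scaled instead to the bacterial and phage transcripts added at hybridisation, the median log2 difference of all genes tested moved from 0.04 to 0.31. The split of all genes called was 729 higher and 398 lower on the deposited scale, 622 and 598 with median centring, and 1478 and 37 with the spike-in scaling. With that last scaling 5 members were higher (Tap1, Irf9 and the 3 Ifitm genes) and 0 were lower at an adjusted p under 0.05, while 13 of the 18 missed that level. The plot of tested members under the scalings shows this shift gene by gene.

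**Figure D1:**
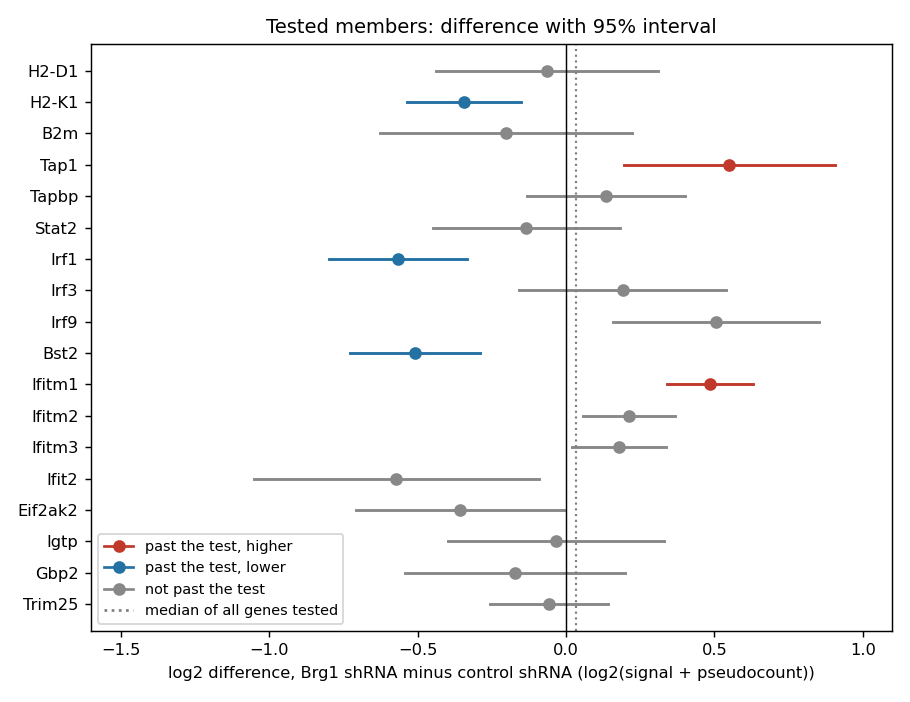
The log2 difference (Brg1 shRNA minus control shRNA, horizontal axis) of each of the 18 tested members is a point with its 95% interval from limma, red for higher, blue for lower and grey for genes that did not pass the test; the dotted line is the median of all genes tested, 0.04. Tap1 and Ifitm1 lie to the right of 0 and H2-K1, Irf1 and Bst2 to the left.

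Sequences of the promoters are shown for the 5 members that passed the test, and for Ifit1 as an antiviral gene whose signal was below the filter. They are windows from 250 bases before to 50 bases after the annotated start, from RefSeq on build GRCm38.p6, 5′ to 3′ on the strand of the gene. Their positions are chr17:34000298-34000597 (minus strand), chr17:34187306-34187605 (plus strand), chr11:53769764-53770063 (plus strand), chr8:71537423-71537722 (minus strand), chr7:140967826-140968125 (plus strand) and chr19:34640639-34640938 (plus strand). H2-K1 and Irf1 each have 2 windows in the table, of which 1 is shown. Capitals mark matches, on either strand, to the ISRE core GAAANNGAA or to the GAS letters TTCNNNGAA, which read the same on both strands.
H2-K1: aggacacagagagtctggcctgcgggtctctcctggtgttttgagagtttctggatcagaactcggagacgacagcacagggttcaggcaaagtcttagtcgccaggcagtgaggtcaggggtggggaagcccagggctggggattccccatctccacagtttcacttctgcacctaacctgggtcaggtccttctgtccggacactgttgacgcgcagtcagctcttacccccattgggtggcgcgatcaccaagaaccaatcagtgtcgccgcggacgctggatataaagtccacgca
Tap1: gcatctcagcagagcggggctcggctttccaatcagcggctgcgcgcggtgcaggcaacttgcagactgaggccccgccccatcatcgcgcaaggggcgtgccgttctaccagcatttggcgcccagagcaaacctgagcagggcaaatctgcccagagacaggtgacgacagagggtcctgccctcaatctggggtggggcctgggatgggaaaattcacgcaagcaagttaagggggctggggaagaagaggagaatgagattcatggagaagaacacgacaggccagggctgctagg
Irf1: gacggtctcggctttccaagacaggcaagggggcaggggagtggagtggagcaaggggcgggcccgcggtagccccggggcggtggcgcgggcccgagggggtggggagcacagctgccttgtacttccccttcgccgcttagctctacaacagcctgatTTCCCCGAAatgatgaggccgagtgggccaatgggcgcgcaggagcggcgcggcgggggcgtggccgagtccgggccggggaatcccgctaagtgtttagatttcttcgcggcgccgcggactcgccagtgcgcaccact
Bst2: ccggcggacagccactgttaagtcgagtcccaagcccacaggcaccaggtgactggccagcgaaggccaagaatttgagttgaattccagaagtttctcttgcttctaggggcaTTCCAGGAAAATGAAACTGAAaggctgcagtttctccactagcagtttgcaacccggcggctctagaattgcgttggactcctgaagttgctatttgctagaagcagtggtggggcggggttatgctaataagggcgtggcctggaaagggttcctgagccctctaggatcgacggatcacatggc
Ifitm1: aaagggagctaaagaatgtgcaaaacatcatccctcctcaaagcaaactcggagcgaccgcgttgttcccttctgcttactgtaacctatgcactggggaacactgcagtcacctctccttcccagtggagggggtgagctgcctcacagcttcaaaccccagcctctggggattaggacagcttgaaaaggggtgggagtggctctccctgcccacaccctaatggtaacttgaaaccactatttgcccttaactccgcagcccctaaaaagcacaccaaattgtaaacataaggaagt
Ifit1: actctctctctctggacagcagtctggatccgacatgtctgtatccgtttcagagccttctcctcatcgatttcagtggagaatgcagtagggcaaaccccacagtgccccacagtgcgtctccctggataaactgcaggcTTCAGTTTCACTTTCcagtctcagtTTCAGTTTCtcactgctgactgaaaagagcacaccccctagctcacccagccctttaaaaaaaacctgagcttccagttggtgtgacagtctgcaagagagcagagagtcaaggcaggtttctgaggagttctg

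The Irf1 window held a GAS match, TTCCCCGAA, whose first base lies 90 bases before the start. In the Bst2 window a GAS match, TTCCAGGAA, starts 136 bases before the start and overlaps the first of 2 ISRE cores at 130 and 124 bases. Ifit1 had 3 ISRE cores, at 109, 103 and 84 bases. The windows shown for H2-K1, Tap1 and Ifitm1 held neither string, which says only that these letters are not in these 300 bases. Of 29 members with a window, 16 (55.2%) had an ISRE core and 8 (27.6%) a GAS match in at least 1 window. Over all 27025 genes in the table the shares were 9.76% and 9.55%. ISRE cores were found in 9 of 18 members tested and in 6 of the 10 members below the filter that have a window. Among the 5 members that passed the test, Bst2 alone had an ISRE core in any of its windows. A match describes the sequence and is not a binding site shown here.

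Among the members that encode transcription factors (Irf1, Irf3, Irf7, Irf9 and Stat2), Irf1 alone passed the test. Irf1, which drives class I and many interferon-gamma targets and is itself induced through a GAS, gave 185.7 and 175.2 signal units in the knockdown and 280.3 and 273.4 in the control. Both knockdown arrays lay below both control arrays. The log2 difference was -0.57 ± 0.10 (SE, n = 2 each; limma, adjusted p = 0.00761), 1.48-fold lower. In a bulk sample, fewer cells with a transcript and less transcript per cell cannot be told apart. The call was kept when each array was left out in turn, and was lost with the spike-in scaling (log2 difference -0.28, adjusted p = 0.326).

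Irf9, the DNA-binding subunit of the complex that recognises the ISRE, read 59.9 and 51.9 in the knockdown and 32.7 and 34.1 in the control. The groups did not overlap, but the gene did not pass, at 0.51 ± 0.15 on the log2 scale (SE from limma; adjusted p = 0.0566). It passed without the intensity trend (adjusted p = 0.0336), with replicates paired across their numbers (0.0482) and under spike-in scaling (0.0115). With probe sets averaged per gene it also passed (0.0297), though its own log2 difference stayed at 0.51 and only the other genes in the fit differed. It did not pass under the other 11 alternatives that tested it, where the adjusted p reached 0.205 without control replicate 1. Stat2, its partner, read 64.1 and 57.5 against 69.0 and 68.1, a log2 difference of -0.13 with a 95% interval from -0.45 to 0.18. Irf3, the factor activated by nucleic acid sensors, read 124.8 and 155.9 against 138.2 and 103.5, and its arrays overlapped. Irf7, which amplifies interferon production, was below the filter at 2.4 and 25.8 against 4.2 and 12.2.

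The Ifitm genes encode small membrane proteins that block virus entry, and Ifitm1 and Ifitm3 are also known in early embryos and germ cells. Ifitm1 read 3271.6 and 3358.2 in the knockdown and 2336.8 and 2385.9 in the control. The arrays of each group were close together and the groups were well apart. Its log2 difference of 0.49 ± 0.06 (SE, n = 2 each; limma, adjusted p = 0.0016), 1.40-fold, was the smallest adjusted p among the members. The call was kept under all 16 alternatives, with differences between 0.44 and 0.79.

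Ifitm2 read 2301.1 and 2408.8 against 2064.6 and 1992.7 in the control. Ifitm3 read 2377.9 and 2246.8 against 2093.9 and 1985.8. In both genes the knockdown arrays were above the control arrays, as for Ifitm1, but neither passed. Their log2 differences were 0.21 ± 0.07 and 0.18 ± 0.07 (SE; limma, adjusted p = 0.0676 and 0.119), and both passed with quantile normalization or the spike-in scaling. The 3 genes are alike in part, to an extent not measured here, and how far their probe sets bind each other's transcripts was not tested.

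Bst2, or tetherin, holds budding viruses at the cell surface. It read 311.5 and 302.7 in the knockdown and 470.0 and 421.6 in the control. All knockdown values were below all control values, and the log2 difference was -0.51 ± 0.10 (SE, n = 2 each; limma, adjusted p = 0.00938), 1.42-fold lower. The call was kept when each array was left out, and was lost with the spike-in scaling (log2 difference -0.21, adjusted p = 0.463).

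Among the other antiviral effectors above the filter (Ifit2, Eif2ak2, Trim25, Gbp2 and Igtp), none passed limma at an adjusted p under 0.05. Over all genes tested 14.4% passed. In the same fit Ifit2 and Eif2ak2 had an unadjusted p under 0.05, as did 31.3% of all genes tested. Ifit2, which binds viral RNA, read 25.3 and 10.8 in the knockdown and 39.0 and 32.2 in the control, so the log2 difference was -0.57 ± 0.21 (SE; limma, adjusted p = 0.104). The groups did not overlap, but the knockdown mean of 18.05 was below the filter level, so the gene was tested only because of its control arrays. Without knockdown replicate 1, the brighter of the pair, the difference was -0.85 (adjusted p = 0.0153), and without knockdown replicate 2 it was -0.29 (adjusted p = 0.43). Eif2ak2, the kinase PKR that halts translation on double-stranded RNA, read 35.7 and 33.3 against 53.4 and 46.3, and its second probe set 28.8 and 39.1 against 41.0 and 38.6. The first differed by -0.36 ± 0.16 on the log2 scale (SE from limma; adjusted p = 0.153) with no overlap, while the arrays of the second overlapped.

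Trim25, the ubiquitin ligase that activates RIG-I, had 3 tested probe sets with log2 differences of -0.06, -0.17 and -0.19, none past the test. Gbp2 and Igtp, interferon-inducible GTPases, gave -0.17 (95% interval -0.54 to 0.20) and -0.03 (-0.40 to 0.33). For all 3 genes the arrays of the probe set used overlapped between the groups, and the intervals do not show that they were unchanged.

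The 16 members below the filter were Tap2, Irf7, Ifit1, Ifit3, Oas1a, Oasl2, Mx1, Mx2, Usp18, Rsad2, Cxcl10, Ifi35, Iigp1, Ifih1, Tlr3 and Ccl5. Their signals ran from 0.3 to 25.8 over all arrays of both groups, with Irf7 in knockdown replicate 2 the brightest. Many are textbook interferon-induced genes: Ifit1 read 9 and 4.4 against 6.8 and 0.3, Rsad2 (viperin) 14.9 and 3.4 against 16.3 and 8.1, and Usp18, the protease that removes ISG15, 7.8 and 7.1 against 8.3 and 4.8. The arrays of the groups overlapped in these 3 and in 13 of the 16. The 3 without overlap compare with 37.9% of all genes below the filter. The exceptions were Ifit3 (3.4 and 3.4 against 0.8 and 1.5), Mx2 (1 and 1.2 against 2.9 and 2.6) and the chemokine gene Cxcl10. Cxcl10 read 17.7 and 15.8 in the knockdown and 2 and 1.8 in the control. With no filter it alone of the 16 passed limma (log2 difference 0.75, adjusted p = 0.0418), a size that depends on the pseudocount. Detection calls were not used here, so none of these genes is called absent.

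**Figure D2:**
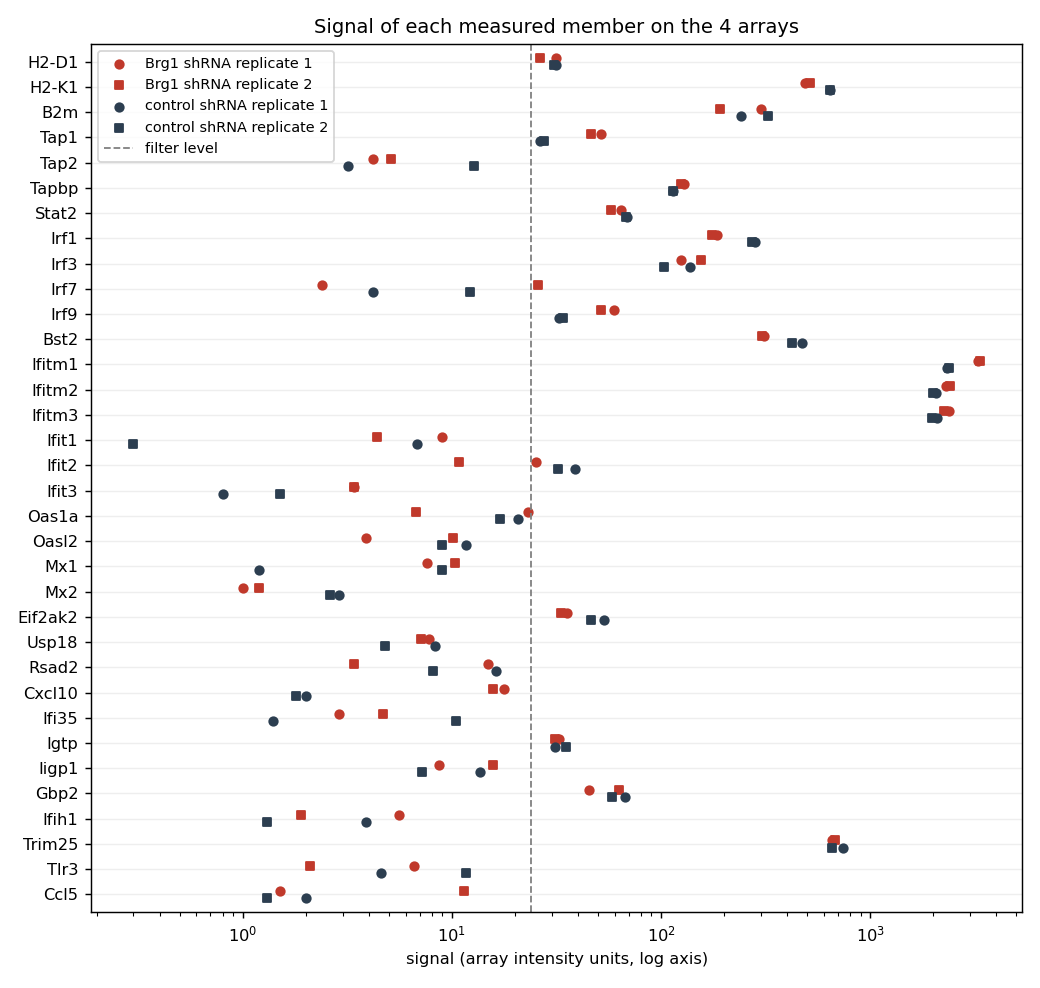
Signal of the probe set used for each of the 34 measured members (log axis, array intensity units) on the 2 knockdown arrays (red) and 2 control arrays (dark blue), with circles for replicate 1 and squares for replicate 2. The dashed line is the filter level of 23.9: 16 members have means left of it, and the red and dark points separate widely for Cxcl10 at the dim end.

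Among the class I genes, H2-K1, which encodes a classical heavy chain, read 487.9 and 518.2 in the knockdown and 640.6 and 646.5 in the control. Both knockdown arrays were lower, by 0.34 ± 0.09 on the log2 scale (SE, n = 2 each; limma, adjusted p = 0.0279), 1.27-fold. This call was lost when any 1 of the 4 arrays was left out (log2 differences -0.30 to -0.39, adjusted p between 0.0564 and 0.0892). With the mean of all its probe sets the difference was -0.25 (adjusted p = 0.191), and with the spike-in scaling -0.04 (adjusted p = 0.893). It also missed the threshold with no filter (adjusted p = 0.0586) or no intensity trend (0.075). All probe sets annotated to H2-K1 alone are of the kind that can bind several transcripts. Class I heavy chain genes are alike in sequence, to an extent not measured here. With every probe set fitted by itself, its other 2 above the filter gave -0.25 and -0.07 (adjusted p = 0.245 and 0.874). A probe set annotated to both H2-K1 and H2-D1 read 51.4 and 53.3 against 66.6 and 64.1 and gave -0.24 (adjusted p = 0.309).

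The other classical heavy chain, H2-D1, had 3 tested probe sets. The one used here read 31.6 and 26.3 against 31.4 and 30.8, and the brightest read 155.2 and 158.5 against 166.7 and 147.1. Both overlapped between the groups, and their log2 differences of -0.06 and 0.00 had 95% intervals within 0.44 of 0. The remaining one, at 136.3 and 126.1 against 113.7 and 117.2, gave 0.16. The fall of H2-K1 was thus not seen in H2-D1, though the difference between the 2 genes was not tested. B2m, the light chain of every class I molecule, read 301.6 and 192.3 against 242.5 and 324.1, and its second probe set 125.6 and 107.4 against 134.6 and 161.4. The knockdown replicates of the first lay farther apart than the group means, and its log2 difference of -0.20 became -0.50 without knockdown replicate 1 and 0.098 without knockdown replicate 2. The arrays of the second were all lower in the knockdown, but it did not pass (log2 difference -0.30; limma over probe sets, adjusted p = 0.20).

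Tap1, a subunit of the peptide transporter, read 51.5 and 46.4 in the knockdown and 26.4 and 27.7 in the control. The knockdown arrays were higher by 0.55 ± 0.16 on the log2 scale (SE, n = 2 each; limma, adjusted p = 0.0463), 1.46-fold. The call was lost when any 1 array was left out (log2 differences 0.50 to 0.60, adjusted p between 0.079 and 0.182) and with median centring (adjusted p = 0.0597), quantile normalization (0.0716) or no filter (0.123). It also missed the threshold with every probe set fitted by itself (adjusted p = 0.0618), and the other 3 Tap1 probe sets were below the filter. Tap2, the other transporter subunit, was below the filter at 4.2 and 5.1 against 3.2 and 12.8. Tapbp, or tapasin, which joins class I to the transporter, gave 129.5 and 125.3 against 114.6 and 113.7. Its arrays did not overlap, and differed by 0.14 ± 0.12 on the log2 scale (SE from limma; adjusted p = 0.47).

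Of the 62 member probe sets, 31 were above the filter. With every probe set fitted by itself, 4 of the 31 (12.9%) passed, against 9.13% of all probe sets tested. They were those of Ifitm1, Irf1, Bst2 and the brightest of H2-K1.

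**Figure D3:**
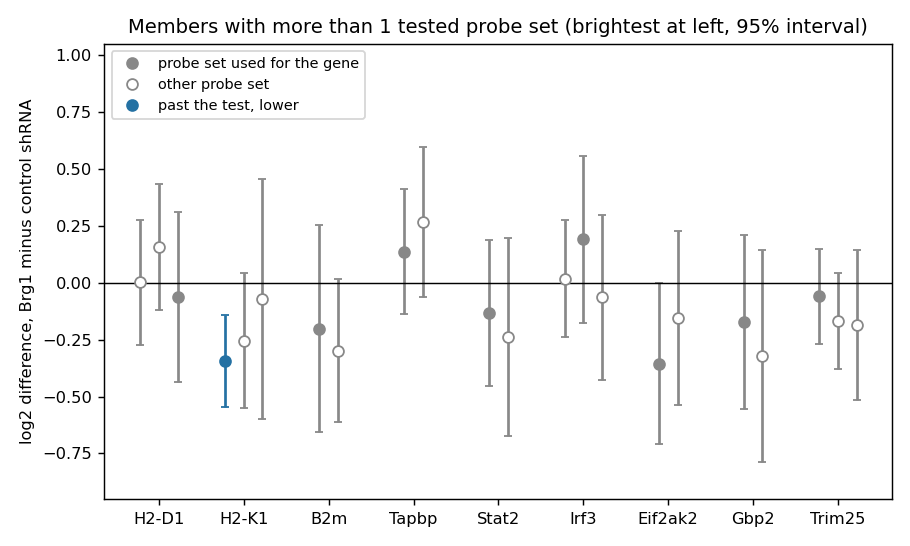
Log2 differences (vertical axis, Brg1 minus control shRNA) with 95% intervals for the members with more than 1 tested probe set, brightest at the left within each gene; filled points are the probe sets used for the gene and blue marks the one past the test. The 3 H2-K1 probe sets lie at -0.34, -0.25 and -0.07, and the H2-D1 probe sets on both sides of 0.

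**Figure D4:**
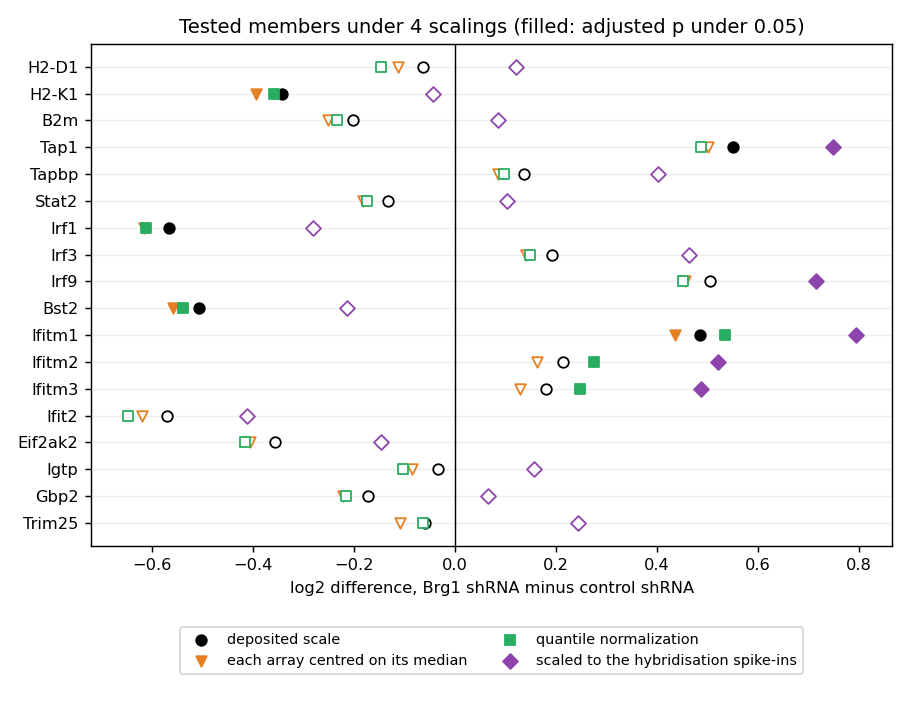
Log2 differences of the 18 tested members (horizontal axis) on the deposited scale and with median centring, quantile normalization and scaling to the hybridisation spike-ins; filled symbols have an adjusted p under 0.05. The purple spike-in symbols lie to the right of the others for each gene, and Ifitm1 is filled under each of the 4.

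Upstream of these genes, the interferon genes themselves were at the bottom of the scale. All 10 measured ligand genes were below the filter, at 0.6 to 27.6 signal units over the 4 arrays. Ifnb1, the interferon made first by most cells, read 22.3 and 27.6 in the knockdown and 19.4 and 10.9 in the control.

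Of 13 measured receptors, kinases, STATs and their inhibitors, 10 were tested. Of these, 2 rose (20%, against 9.33% of all genes tested), 0 fell (against 5.09%) and 8 did not pass. Jak1, the kinase shared by the type I and type II receptors, read 310.3 and 287.7 against 171.8 and 188.9. It was higher on both knockdown arrays, by 0.67 ± 0.11 on the log2 scale (SE, n = 2 each; limma, adjusted p = 0.00414), and kept its call under every alternative. Jak2, the partner kinase of the interferon-gamma receptor, read 91.9 and 87.0 against 64.3 and 34.6. Its difference of 0.69 ± 0.20 (SE; limma, adjusted p = 0.0462) fell to 0.38 without control replicate 2 (adjusted p = 0.224). Leaving out either knockdown array (0.0705 and 0.0717), the filter (0.15) or the intensity trend (0.0806), or quantile normalization (0.0627), also put it above the threshold. Jak1 and Jak2 serve many cytokine receptors besides those of interferons.

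The receptor genes Ifnar1 (log2 difference 0.10), Ifnar2 (0.26) and Ifngr1 (0.11) and the kinase gene Tyk2 (0.17) did not pass, and Ifngr2 was below the filter. Nlrc5, the class I transactivator, was not analysed here. None of 6 tested nucleic acid sensing genes and none of 3 tested further interferon regulatory factors passed limma at an adjusted p under 0.05. Of all genes tested, 14.4% passed. In the same fit, 3 of the 6 (Mavs, Sting1 and Myd88) and 1 of the 3 (Irf2bp1) had an unadjusted p under 0.05. That compares with 31.3% of all genes tested. Sting1 had a control mean of 17.8, below the filter level of 23.9, so it was tested only because of its knockdown arrays.

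Among 43 further measured interferon-stimulated genes, 16 were tested, 1 rose, 4 fell and 11 did not pass, a median log2 difference of 0.02. The shares were 6.25% higher and 25% lower, against 9.33% and 5.09% of all genes tested. Psmb10, a catalytic subunit of the immunoproteasome, read 357.3 and 320.9 in the knockdown and 549.9 and 612.4 in the control. Both knockdown arrays were lower, by 0.74 ± 0.10 on the log2 scale (SE, n = 2 each; limma, adjusted p = 0.00168). Psme1, a subunit of the proteasome activator PA28, read 563.4 and 554.7 against 734.0 and 679.1, lower by 0.33 ± 0.09 (adjusted p = 0.0348). Its call was lost without either knockdown array or without control replicate 1 (log2 differences -0.34 to -0.27). It was also lost with no filter (limma, adjusted p = 0.0705) or no intensity trend (0.0886). The other immunoproteasome subunits measured were chosen here after their values were seen and were not called lower. Psmb9 read 28.3 and 47.9 against 31.6 and 39.6 (log2 difference 0.05, adjusted p = 0.897), with overlapping arrays, and Psmb8 was below the filter at 10 and 24.9 against 29.2 and 31.9 and was not tested.

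Ifi30, a lysosomal thiol reductase that prepares antigens for class II, read 388.4 and 421.7 against 630.7 and 639.9, lower by 0.63 ± 0.09 (SE; limma, adjusted p = 0.0023). Parp14, at 22 and 25.1 against 46.2 and 46.0, was lower by 0.60 ± 0.16 (adjusted p = 0.0364). It was tested only because of its control arrays, and lost its call without any 1 array or with no filter (adjusted p = 0.103). Psmb10, Ifi30, Psme1 and Parp14 all lost their calls with the spike-in scaling (adjusted p between 0.119 and 0.939). Daxx, a histone H3.3 chaperone chosen after its values were seen, was higher by 0.33 ± 0.09 (adjusted p = 0.0365). Leaving out knockdown replicate 2 or either control array put it above the threshold (adjusted p between 0.0508 and 0.182), as did median centring (0.0582), no filter (0.0767) and no intensity trend (0.091).

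Of 16 further class I presentation genes measured, 5 were tested and 11 were below the filter. Among the 5, 1 rose (20%, against 9.33% of all genes tested), 0 fell (against 5.09%) and 4 did not pass. Below the filter, Erap1 read 15.4 and 15 in the knockdown and 30.8 and 29.3 in the control, and H2-Bl 19.3 and 7.5 against 38.6 and 30.5. These were picked after their values were seen. Their control means were above the filter level of 23.9, so their knockdown arrays kept them from being tested. No gene of the 11 had a knockdown mean above that level. Calr, the chaperone calreticulin of the loading complex, read 1926.6 and 1987.9 against 1588.3 and 1604.1, higher by 0.29 ± 0.07 (SE, n = 2 each; limma, adjusted p = 0.024). It missed the threshold when knockdown replicate 2 or control replicate 1 was left out (log2 differences 0.27 and 0.28). The same held with median centring (limma, adjusted p = 0.061), no filter (0.0665) and no intensity trend (0.106).

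Fibroblasts and blood cells also express many of these genes, so their markers are given beside them. Of 16 fibroblast markers 4 were tested and 0 passed limma, against 14.4% of all genes tested. In the same fit 3 of the 4 had an unadjusted p under 0.05, which 31.3% of all genes tested also had. Summed over the list the signals were 683.9 and 698.6 in the knockdown and 700.6 and 788.9 in the control. Col1a1, Col1a2, Dcn and Lum had means below the filter. The 4 tested were Tagln (360.5 and 360.3 against 402.1 and 504.1), Acta2 (103.7 and 119.5 against 92.2 and 77.5), Thy1 and Loxl1. In all 4 the arrays of the groups did not overlap (100%, against 60.2% of all genes tested), with 2 higher and 2 lower. Of 18 immune cell markers 5 were tested, 1 rose, 1 fell and 3 did not pass (20% in each direction, against 9.33% and 5.09% of all genes tested), with sums of 400.2 and 458.9 against 389.9 and 377.9. Cd68, a lysosomal protein used as a macrophage marker, rose from 36.7 and 44.7 to 100.1 and 104.2, and Coro1a, an actin regulator of blood cells, fell from 91.4 and 105.5 to 60.4 and 50.8. Coro1a no longer passed when knockdown replicate 2 or control replicate 2 was left out (adjusted p = 0.0643 and 0.0909), with the spike-in scaling (0.154) or with no filter (0.0798). With the mean of all its probe sets its log2 difference of -0.65 became -0.33 (adjusted p = 0.136). Ptprc (CD45), the defining leukocyte marker, read 2.9 to 9.6 on the 4 arrays, below the filter. The part of such cells in the results above was not tested.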

How the data were processed

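The 4 samples were hybridised to 1 Affymetrix array each. The deposited table gives the linear intensity of every probe set, produced with GCOS per the submitters' processing notes. Its signal algorithm and target value are not stated in the labels used here. The trimmed mean (2% left out at each end) was 200.1 on all 4 arrays. The table held 22690 probe sets, 64 of them controls. Symbols came from the platform annotation and were updated by Entrez ID through RefSeq GRCm38.p6.

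Values were analysed as log2(signal + 20.0) with no further normalization. Each gene took its probe set with the highest mean, and an _x_at probe set only where it had no other. Genes whose mean reached percentile 40 of the non-control probe sets (23.9 signal units) were tested with limma 3.58.1 in R 4.3.3 (lmFit, eBayes with an intensity trend, two-sided), with Benjamini-Hochberg adjustment over all genes tested and a threshold of 0.05. A second fit took every probe set by itself. The model was also run on simulated data, with added changes larger than the difference of any tested member. That run does not cover changes of the size reported here. With 2 arrays per group the number of arrays limits the precision.

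The members and lists were chosen with earlier results of these data known. All members were to be named, with the shRNA targets, selected receptor and kinase genes, and up to 4 called genes per further list. Alternatives changed the pseudocount, filter, scaling, variance model, probe set choice and pairing, and left out each array. A crossed block was added after seeing the data. Protein sequences were not used here.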

Additional observations from a re-analysis of the deposited data

How the results depend on the processing

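Over 278 refits of the 18 tested members under the alternatives, 240 kept direction and side of the threshold, 17 lost a call, 9 gained one and 12 changed sign. The count of all genes changed was 1127 on the main setting, 433 with no filter, and 601 to 1171 with an array left out. Members higher numbered 2, and 1 with the stricter filter, 1 with median centring, 5 with the spike-in scaling and 1 whichever array was left out. Members lower numbered 3, 0 with the spike-in scaling and 2 to 3 with an array left out. Member probe sets changed numbered 4, 2 with no filter, and 1 to 4 with an array left out. Non-overlapping members numbered 12, where 60.2% of all genes tested did not overlap. They numbered 7 with the stricter filter, where 10 members were tested and 62.1% of all genes did not overlap. With an array left out they numbered 14 to 16, where 77.97% to 82.1% of all genes did not overlap. The share of all genes tested that passed was 14.4% on the main setting. It was 3.49% with no filter, 16.4% with the stricter filter, 15.6% with median centring and 19.4% with the spike-in scaling.

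The genes that changed sign had not passed. With the spike-in scaling the log2 differences of H2-D1 (0.12), B2m (0.084), Stat2 (0.10), Igtp (0.16), Gbp2 (0.065) and Trim25 (0.24) were above 0, and H2-D1 was at 0.0017 with _x_at probe sets on equal terms. With an array left out, H2-D1 ran from -0.14 to 0.014, B2m from -0.50 to 0.098, Igtp from -0.089 to 0.019, Gbp2 from -0.34 to 0.00038, Trim25 from -0.14 to 0.021, Ifnar1 from -0.071 to 0.28 and Ifngr1 from -0.13 to 0.34. The cause was not tested.

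The replicate numbers of the titles do not state a shared batch, and the deviations of same-numbered arrays correlated at -0.14 over the genes tested. With the replicate block 1187 genes, 2 higher and 3 lower members passed, and with the crossed block 1478, 3 and 3. With 2 arrays per group, a gene that did not pass is not shown to be unchanged.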
